A study of Mus musculus with 8 samples.

Results

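The Nr4a genes encode a family of 3 orphan nuclear receptors, and their messages were followed in mouse hippocampal neurons during exposure to bicuculline. Members were taken by symbol from the platform annotation. All 3 were found, as Nr4a1 (transcript cluster 10427035), Nr4a2 (10482772) and Nr4a3 (10504838), each with 1 transcript cluster, among 19938 genes tested. Gene expression had been measured on 8 Affymetrix Mouse Gene ST 1.0 arrays, with values given as a log2 signal per transcript cluster. The RNA came from hippocampal neurons of ICR mice, an outbred strain, taken from embryos at E17.5 and kept in culture for 10 days. The groups were cultures sampled at 0, 30, 180 and 300 min of 50 µM bicuculline, with 2 biological replicates at each time. All groups shared strain, tissue, age in culture and agent, and no culture given vehicle for 30, 180 or 300 min was named in the labels. Every comparison with 0 min used the same pair of 0 min arrays. The labels call the replicates biological without naming separate dissections. The p-values therefore reflect how far arrays of 1 time differed and no more.

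Bicuculline is an antagonist of GABA-A receptors, through which most fast inhibition in the brain runs, and so raises network firing. NR4A proteins are transcription factors without a known natural ligand that bind DNA alone at a site called the NBRE, or in pairs. Nr4a1 (Nur77) and Nr4a2 (Nurr1) also pair with retinoid X receptors, while Nr4a3 (Nor1) is not known to do so. The genes are classed as immediate-early genes, which calcium signalling through CREB and MEF2 can switch on without new protein. In the hippocampus the family is known for a part in memory formation, and Nr4a2 is known in the midbrain as a maintenance factor of dopamine neurons.

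The promoters are shown because CREB is a known activator of the family and the core of its binding element is present in all of them. The sequences are RefSeq entries of build GRCm38.p6 and give the 250 bases before the transcription start of each gene, 5′ to 3′ on the strand of the gene. They lie at chr15:101266596-101266845 on the plus strand for Nr4a1, at chr2:57124004-57124253 on the minus strand for Nr4a2 and at chr4:48045055-48045304 on the plus strand for Nr4a3. The build behind the deposited values was not given in the sources used here. Capitals mark the CRE core TGACG, or its reverse complement, the part of the CREB site shared with the full CRE.

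Nr4a1: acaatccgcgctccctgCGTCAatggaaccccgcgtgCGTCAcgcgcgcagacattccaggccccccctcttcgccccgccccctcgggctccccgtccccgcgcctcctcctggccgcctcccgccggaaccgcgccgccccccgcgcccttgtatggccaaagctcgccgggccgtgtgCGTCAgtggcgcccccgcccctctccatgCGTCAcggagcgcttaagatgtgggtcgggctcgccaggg

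Nr4a2: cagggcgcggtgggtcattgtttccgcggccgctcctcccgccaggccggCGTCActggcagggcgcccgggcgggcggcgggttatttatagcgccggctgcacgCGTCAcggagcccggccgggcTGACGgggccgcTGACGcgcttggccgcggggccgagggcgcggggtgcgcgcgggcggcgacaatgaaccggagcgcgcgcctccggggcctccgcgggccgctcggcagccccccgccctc

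Nr4a3: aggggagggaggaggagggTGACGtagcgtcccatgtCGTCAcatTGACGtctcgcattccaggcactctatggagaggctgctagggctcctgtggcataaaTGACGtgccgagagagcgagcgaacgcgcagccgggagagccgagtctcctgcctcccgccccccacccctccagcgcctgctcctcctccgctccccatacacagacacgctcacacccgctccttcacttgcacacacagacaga

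Each promoter held 4 CRE cores, counted on both strands. Of 32536 distinct promoter windows of the same length in the RefSeq table, 17.85% held at least 1 core, and 45, or 0.138%, held at least 4. Among the 9160 windows with a GC content of at least 60%, 0.371% held at least 4. The GC content was 74.4% for Nr4a1, 80% for Nr4a2 and 63.6% for Nr4a3. In Nr4a1 all 4 cores lay on the minus strand, with 2 near the start (first bases at −69 and −40) and 2 further away (−233 and −213). In Nr4a2 they lay between −200 and −107, and in Nr4a3 between −231 and −143.

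The other motifs searched, on both strands, were the full CRE (TGACGTCA, which contains the core), the NBRE (AAAGGTCA), the AP-1 site (TGANTCA), the EGR site (GCGTGGGCG), the CArG box bound by SRF and the MEF2 site. Of these, 1 match was found, a MEF2 site in Nr4a2 at −167 to −158, and 2.89% of all windows held one. A match describes letters in the window and was not tested for binding, and a motif outside the 250 bases would not be seen.

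**Figure D1:**
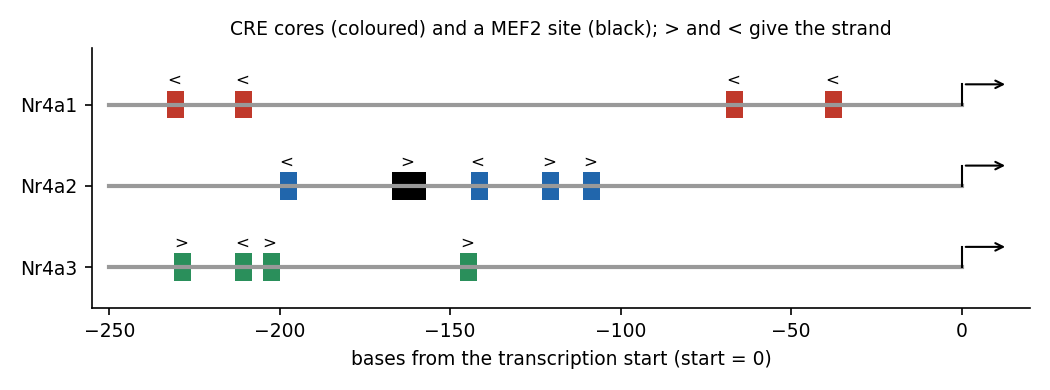
Positions of motif matches in the 250 bases before the transcription start of Nr4a1, Nr4a2 and Nr4a3; the horizontal axis is the distance in bases from the start, set at 0. Coloured blocks are CRE cores, 4 in each gene, the black block is the MEF2 match of Nr4a2, and > and < give the strand of each match relative to the gene.

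The labelled cell type was first set against its markers. As a mark of background, the 95th percentile of the mean signals of 1015 olfactory receptor genes was 4.47. On each array, between 67.0% and 68.8% of all genes tested lay above this mark. All 7 markers of neurons lay above it, with mean signals between 8.06 (Rbfox3) and 10.6 (Syt1), as did the 4 measured markers of glutamatergic and the 5 of GABAergic neurons. The 5 astrocyte markers were above it too, from 4.82 for Aqp4 to 7.62 for Slc1a2, and so were 4 of 5 fibroblast markers, led by Col1a1 at 8.06. Since most genes lay above the mark, these counts alone do not show which non-neuronal cells the cultures held. Fewer markers lay above it for oligodendrocytes (3 of 4), microglia (3 of 5) and endothelial cells (2 of 5). Of 6 markers of dopamine neurons, 4 lay above it, which is near the share of all genes. They were Pitx3 at 5.78, Th at 4.84, Slc6a3 at 4.82 and En1 at 4.72. No marker gene of any of these classes passed the test at 30, 180 or 300 min against 0 min, where 0.0953%, 0.331% and 0.286% of all genes did (limma). With shares this low, the absence of calls does not show that the mix of cells was stable. The mean log2 signal over the astrocyte markers was 6.35 to 6.54 at 0 min, 6.37 to 6.50 at 30 min, 6.27 to 6.47 at 180 min and 6.12 to 6.43 at 300 min. In a mixed culture, more RNA per cell and more cells of a type cannot be told apart. Array medians lay between 4.84 and 4.88, and replicates correlated across genes at r = 0.991 to 0.994.

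The first question was which members responded and when. At 30 min 1 of the 3 genes, Nr4a1, was higher than at 0 min, where 0.0802% of all genes tested were called higher (limma, adjusted p under 0.05 over 19938 genes). At 180 min 2 of 3 were higher, Nr4a1 and Nr4a2, against 0.211% of all genes. At 300 min the same pair was higher, against 0.226% of all genes. Nr4a3 did not pass at any time. The median log2 change over all genes was within 0.003 of 0 at each of these times.

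Nr4a1, which encodes the receptor Nur77, rose earliest. Its log2 signal was 6.71 and 7.16 at 0 min, 9.04 and 9.14 at 30 min, 8.14 and 7.86 at 180 min, and 8.03 and 8.12 at 300 min. The 30 min arrays were the highest pair and the 0 min arrays the lowest, and neither overlapped with any other time. The mean was 9.09 ± 0.07 at 30 min and 6.93 ± 0.32 at 0 min (SD, n = 2 each), a 4.46-fold rise (log2 change 2.16 ± 0.15 SE, 95% interval 1.83 to 2.49, limma adjusted p = 5.11e-06). This was the change of rank 5 from the top among 19938 genes. Replicate 1 minus replicate 2 was −0.45 at 0 min, a gap that 3.16% of genes matched or exceeded at that time. Without 0 min replicate 2 the 30 min change was 2.39, and without replicate 1 it was 1.93, and the call held without each of the 8 arrays in turn.

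After 30 min the Nr4a1 signal came down and then stayed above its starting level. It averaged 8.0 ± 0.20 at 180 min, against 9.09 ± 0.07 at 30 min (SD, n = 2 each), and this fall of 2.13-fold (log2 change −1.09 ± 0.15 SE, limma adjusted p = 0.00484) was of rank 9 from the bottom among all genes. Nr4a1 was the 1 member of 3 lower at 180 than at 30 min, where 0.171% of all genes were called lower. At 300 min the mean was 8.07 ± 0.07, against 9.09 ± 0.07 at 30 min (log2 change −1.02 ± 0.15 SE, limma adjusted p = 0.0047), with 0.181% of all genes called lower. The call of the fall to 180 min was lost without 30 min replicate 1 (−1.14, adjusted p = 0.0529) and without 30 min replicate 2 (−1.04, adjusted p = 0.0826). That of the fall to 300 min was lost without 30 min replicate 1 (−1.07, adjusted p = 0.0501), 30 min replicate 2 (−0.97, adjusted p = 0.0647) and 300 min replicate 1 (−0.97, adjusted p = 0.0754).

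Against 0 min, the log2 change of Nr4a1 was 1.07 ± 0.15 SE at 180 min (2.09-fold, limma adjusted p = 0.00898) and 1.14 ± 0.15 SE at 300 min (2.21-fold, limma adjusted p = 0.00452). These were 49.4% and 52.8% of the 30 min log2 change. From 180 to 300 min the change was 0.07, with a 95% interval of −0.25 to 0.40, and the arrays of these times overlapped. The 180 min call was lost without 0 min replicate 1 (0.84, adjusted p = 0.109) and without 180 min replicate 1 (0.92, adjusted p = 0.0833), and the 300 min call without 0 min replicate 1 (0.91, adjusted p = 0.0699). In order, the level of Nr4a1 was highest at 30 min, then at 300 and 180 min, which did not differ beyond their spread, and lowest at 0 min.

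Nr4a2, the Nurr1 gene, had its higher signals at the later times. The log2 signal was 6.97 and 7.02 at 0 min, 7.50 and 7.59 at 30 min, 8.53 and 7.82 at 180 min, and 7.86 and 8.49 at 300 min. Each later array lay above both 0 min arrays, and both late times lay above both 30 min arrays, while 180 and 300 min overlapped widely. At 30 min the mean was 7.55 ± 0.06, against 7.0 ± 0.04 at 0 min (SD, n = 2 each). That change of 0.55 ± 0.21 SE (1.46-fold) was of rank 35 from the top but did not pass (limma unadjusted p = 0.0215, adjusted p = 0.910). Its 95% interval, before adjustment, was 0.09 to 1.00. The SE and interval take their spread from all 4 times. Replicate 1 minus replicate 2 was −0.05 at 0 min and −0.09 at 30 min, but 0.71 at 180 min and −0.63 at 300 min. In the other settings with all arrays of both times, the limma adjusted p was 0.270 or more.

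Nr4a2 rose at 180 min, to 8.17 ± 0.50 against 7.0 ± 0.04 at 0 min (SD, n = 2 each), a 2.26-fold difference (log2 change 1.18 ± 0.21 SE, 95% interval 0.72 to 1.63, limma adjusted p = 0.0382). At 300 min it averaged 8.18 ± 0.45 (SD, n = 2), again 2.26-fold above 0 min (1.18 ± 0.21 SE, limma adjusted p = 0.0326). These changes were of ranks 6 and 8 from the top among all genes. The means at 300 and 180 min were almost the same, with a difference of 0.00059 and a 95% interval of −0.45 to 0.45. From 30 to 180 min the change was 0.63 ± 0.21 SE and did not pass (limma adjusted p = 0.281), nor did that from 30 to 300 min (0.63, adjusted p = 0.264). Without 1 array these changes ranged from 0.27 to 0.98 and from 0.31 to 0.95, and neither passed. In order, 300 and 180 min were the highest and did not differ beyond their spread, and 30 and 0 min followed, with no neighbouring pair past the test.

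Both late calls of Nr4a2 were lost without some single arrays. The 180 min call was lost without 0 min replicate 1 (1.15, adjusted p = 0.199), 0 min replicate 2 (1.2, adjusted p = 0.124), either 30 min array (1.18, adjusted p = 0.0630) and 180 min replicate 1 (0.82, adjusted p = 0.179). The 300 min call was lost without 0 min replicate 1 (1.15, adjusted p = 0.202), 0 min replicate 2 (1.2, adjusted p = 0.131), either 30 min array (1.18, adjusted p = 0.0559) and 300 min replicate 2 (0.86, adjusted p = 0.220). Without any 1 array, the changes of Nr4a2 at 180 and 300 min lay between 0.82 and 1.53.

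Nr4a3, the Nor1 gene, had the smallest differences of the family. The log2 signal was 8.34 and 8.09 at 0 min, 8.29 and 8.41 at 30 min, 9.03 and 8.67 at 180 min, and 8.65 and 8.65 at 300 min. The 30 and 0 min arrays overlapped, and the 180 and 300 min arrays lay above all 4 earlier ones. At 30 min the change was 0.14 ± 0.14 SE, with a 95% interval of −0.17 to 0.44 (limma adjusted p = 0.983), and without 1 array it lay between 0.011 and 0.26. At 180 min the mean was 8.85 ± 0.26, against 8.21 ± 0.18 at 0 min (SD, n = 2 each), a change of 0.64 ± 0.14 SE (1.55-fold) that did not pass (limma unadjusted p = 0.000492, adjusted p = 0.0838). It passed with a prior that follows signal (limma adjusted p = 0.0276) and without 180 min replicate 2 (0.82, adjusted p = 0.0480). At 300 min the change was 0.44 ± 0.14 SE (1.36-fold, limma adjusted p = 0.309). In order, 180 min was highest, then 300, 30 and 0 min, and no pair of times passed the test.

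**Figure D2:**
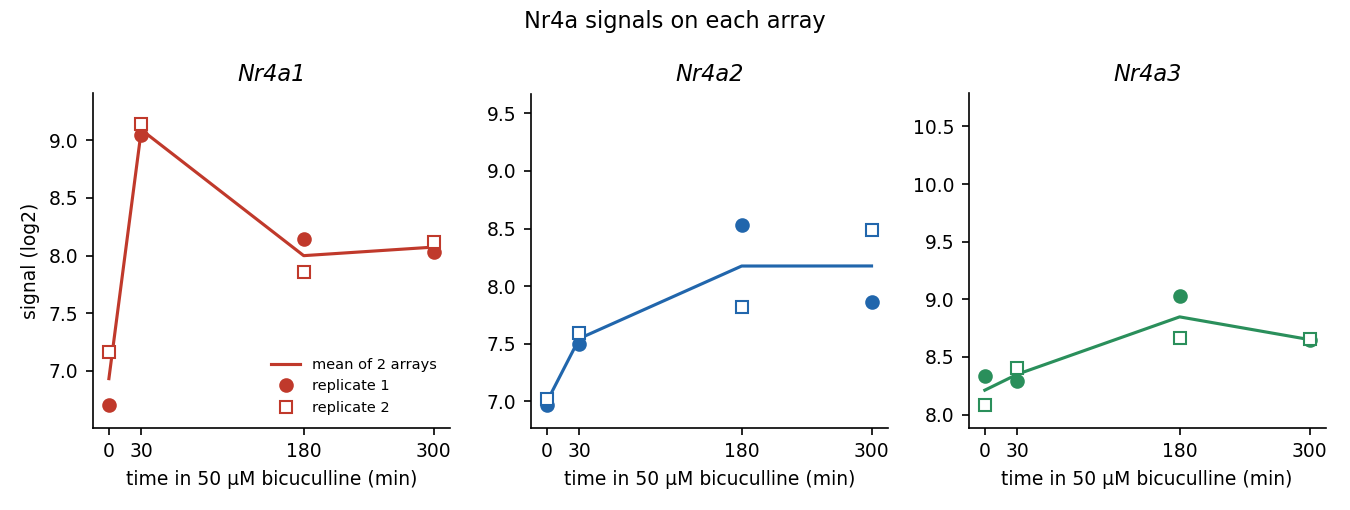
Log2 signal of each Nr4a gene on each array against time in bicuculline in minutes; filled circles are replicate 1, open squares replicate 2, and the line joins the means of the 2 arrays. The vertical axes start at different levels but cover the same span, so changes can be compared between panels and levels cannot. Nr4a1 peaks at 30 min, while the higher signals of Nr4a2 and Nr4a3 are at 180 and 300 min.

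Counting arrays rather than tests, 2 of 3 members had both 30 min arrays above both 0 min arrays, which was so for 19.2% of all genes. At 180 min and at 300 min all 3 members did, against 21.1% and 18.8% of all genes. Between 300 and 180 min none was called in either direction, as for all 19938 genes (0%, limma). In that comparison 1141 genes, but none of the 3 members, had an unadjusted p under 0.05.

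**Figure D3:**
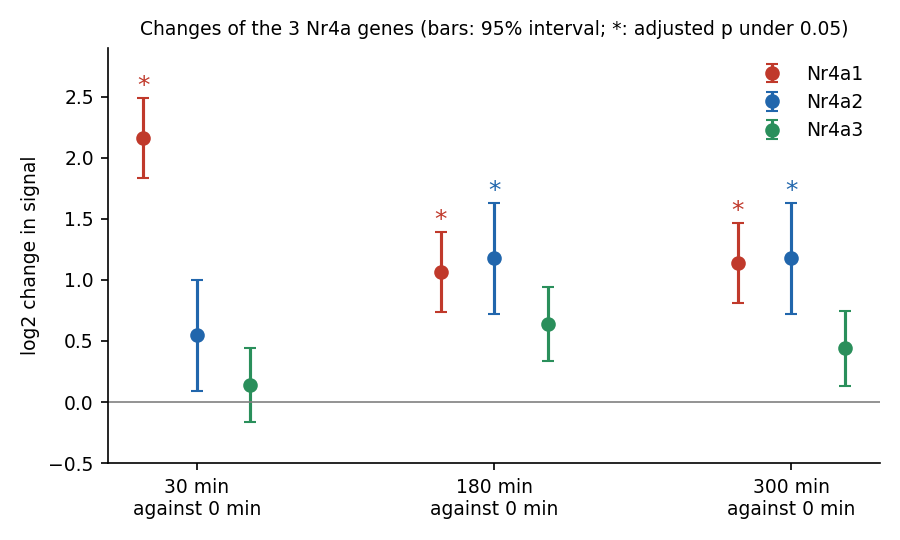
Log2 change of the 3 Nr4a genes at 30, 180 and 300 min against 0 min, with 95% intervals from limma; an asterisk marks an adjusted p under 0.05. Nr4a1 stands at 2.16 at 30 min, and Nr4a1 and Nr4a2 both lie between 1.07 and 1.18 at the later times, above Nr4a3 at 0.64 and 0.44.

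The second question was whether the members differed from each other in their change, which was tested on the difference of their log2 signals on each array. At 30 min the log2 change of Nr4a2 minus that of Nr4a1 was −1.61 ± 0.24 SE, a 3.05-fold difference between their folds (limma adjusted p = 4.66e-11). The change of Nr4a3 minus that of Nr4a1 was −2.02 ± 0.24 SE, or 4.06-fold (limma adjusted p = 1.80e-16). These fits set every gene against 1 member, whose noise all the differences shared, so their p-values cannot be taken at face value. Against Nr4a1 they called 100%, 99.4% and 99.6% of genes at 30, 180 and 300 min, and against Nr4a2 0.0351%, 98.6% and 98.7%. A fit over 9970 gene pairs, chosen after the data were seen, does not share 1 gene in this way and called 0.201%, 0.221% and 0.311% of pairs at these times. At 30 min it gave limma adjusted p = 0.00082 for Nr4a2 and 3.26e-05 for Nr4a3 against Nr4a1.

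At the later times the difference between Nr4a2 and Nr4a1 in change against 0 min was 0.11 at 180 min (95% interval from gene pairs −0.34 to 0.56) and 0.04 at 300 min (−0.42 to 0.49). Neither passed in the fit of every gene against Nr4a1 (limma adjusted p = 0.653 and 0.881) or in that over gene pairs (0.895 and 0.978). The intervals do not show that both genes changed alike. The change of Nr4a3 minus that of Nr4a1 was −0.43 at 180 min (limma adjusted p = 0.0785) and −0.70 at 300 min (limma adjusted p = 0.00416). In the fit over gene pairs the limma adjusted p was 0.444 at 180 min and 0.208 at 300 min. Its SE was smaller (0.21 against 0.24), and so was its limma unadjusted p (0.0526 and 0.00341, against 0.0782 and 0.00411). The higher adjusted p thus came with the adjustment over pairs and not with a wider spread. Without 0 min replicate 1 the 300 min difference was −0.35, and without 0 min replicate 2 the 180 min difference was −0.78.

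The change of Nr4a3 minus that of Nr4a2 was −0.41 at 30 min, −0.54 at 180 min and −0.74 at 300 min, with limma adjusted p of 0.322, 0.145 and 0.0469. The last had a limma adjusted p of 0.200 in the fit over gene pairs, again at a smaller SE (0.21 against 0.37) and a lower unadjusted p (0.00293 against 0.0462). It was also lost without either 0 min array (−0.59 without replicate 1 and −0.89 without replicate 2), when an array of 30 min was left out (−0.74 for each) or 300 min replicate 2 was (−0.43). For the 180 min difference the fit over gene pairs gave a limma adjusted p of 0.340. Without 180 min replicate 2 that difference was −0.72.

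The third question was how the family stood among the other nuclear receptors, the class of transcription factors that includes the steroid, thyroid and retinoid receptors. Of 46 other nuclear receptor genes listed, 42 were measured, and none passed in either direction at 30, 180 or 300 min against 0 min (limma), where 0.0953%, 0.331% and 0.286% of all genes did. At an unadjusted p under 0.05 there were 2, 6 and 7 of the 42, which compares with 5.11%, 12.8% and 8.96% of all genes. Their median log2 change was −0.0012 at 30 min, 0.011 at 180 min and −0.0032 at 300 min, beside 0.00056, −0.00071 and −0.0025 for all genes. Their largest change upward was 0.36 at 30 min, 0.60 at 180 min and 0.56 at 300 min. Nr4a1 and Nr4a2 lay above these at each time, and Nr4a3 lay above the second of them only.

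Rara, the gene of retinoic acid receptor alpha, was the nearest to passing. Its log2 signal was 6.27 and 6.06 at 180 min and 6.21 and 6.06 at 300 min, against 5.57 and 5.57 at 0 min. The change was 0.60 ± 0.12 SE at 180 min (limma adjusted p = 0.0611), which passed when dim genes were left out (adjusted p = 0.0341) and with a prior that follows signal (adjusted p = 0.0406). Its 300 min change of 0.56 passed when dim genes were left out (limma adjusted p = 0.0439). Nr3c2, the mineralocorticoid receptor gene, had signals of 6.70 and 6.74 at 180 min, against 7.29 and 7.27 at 0 min (change −0.57 ± 0.13 SE, limma adjusted p = 0.0917, and 0.0497 with a prior that follows signal). Nr2f1, the COUP-TF1 gene, had a log2 change of 0.51 ± 0.14 SE at 300 min against 0 min (limma adjusted p = 0.183), and of 0.54 against 30 min with an adjusted p of 0.0432 under that prior.

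**Figure D4:**
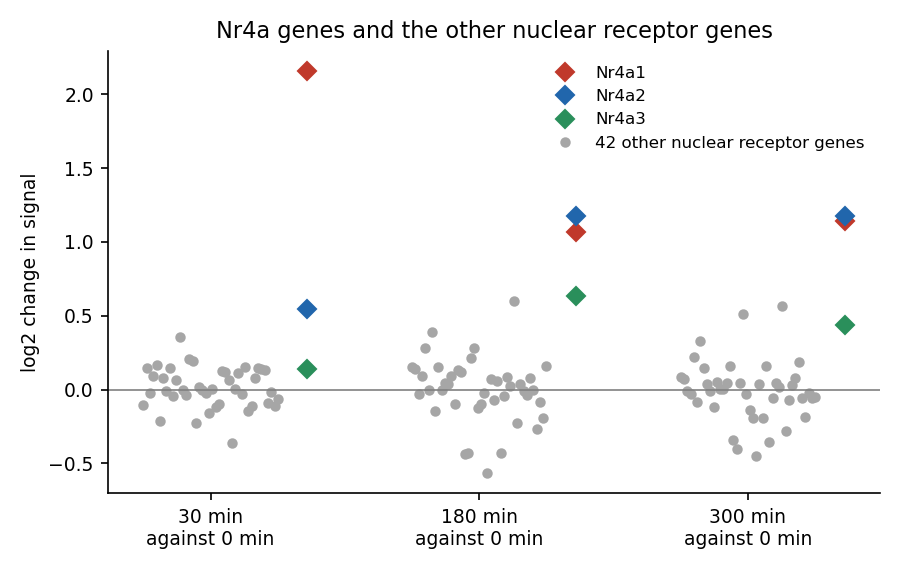
Log2 change at 30, 180 and 300 min against 0 min for Nr4a1, Nr4a2 and Nr4a3 (coloured diamonds) and 42 other nuclear receptor genes (grey circles, spread sideways for legibility). The other receptors lie between −0.57 and 0.60 at all times.

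Genes that act with or upstream of the family showed few calls. Of 16 listed partners and cofactors, 13 were measured, and none passed at any of the 3 times (limma), beside 0.0953%, 0.331% and 0.286% of all genes. At an unadjusted p under 0.05 there were 0, 4 and 3 of the 13, beside 5.11%, 12.8% and 8.96% of all genes. Their median change was 0.02 at 30 min, −0.18 at 180 min and −0.17 at 300 min, beside 0.00056, −0.00071 and −0.0025 for all genes. Ncoa1, a coactivator gene of nuclear receptors, had signals of 7.27 and 7.25 at 180 min, against 7.91 and 7.63 at 0 min (change −0.51 ± 0.12 SE, limma adjusted p = 0.115). The acetyltransferase genes Crebbp (−0.40 ± 0.14 SE) and Ep300 (−0.29 ± 0.13 SE), whose products are coactivators of CREB, did not pass at 180 min either (limma adjusted p = 0.256 and 0.385).

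Of 21 listed regulators of Nr4a transcription, 20 were measured, among them CREB, its CRTC coactivators, MEF2, SRF, calcineurin and kinase genes. At 30 min none passed, beside 0.0953% of all genes, and 2 of the 20 had an unadjusted p under 0.05, beside 5.11% of all genes (limma). At 180 min 1 fell, where 0.12% of all genes were called lower, and at 300 min 1 fell, against 0.0602%. At an unadjusted p under 0.05 there were 5 and 4 of the 20 at these times, beside 12.8% and 8.96% of all genes. The median change of the 20 was −0.03 at 30 min, −0.07 at 180 min and −0.04 at 300 min, beside those all-gene medians. The gene that fell at both times was Rps6ka5, whose product, the kinase MSK1, phosphorylates CREB. Its log2 signal was 6.09 and 6.04 at 180 min and 5.87 and 6.06 at 300 min, against 6.76 and 6.67 at 0 min. The change was −0.65 ± 0.12 SE at 180 min (limma adjusted p = 0.0420) and −0.75 ± 0.12 SE at 300 min (limma adjusted p = 0.0160). The 180 min call was lost without each of the 8 arrays in turn (adjusted p = 0.0537 to 0.248), and the 300 min call without 0 min replicate 1 (adjusted p = 0.145), 0 min replicate 2 (0.0780) and 300 min replicate 1 (0.174). Elk1 (−0.42 at 180 min and −0.47 at 300 min) and Crtc2 (0.21 and 0.38), a ternary complex factor gene and a CREB coactivator gene, did not pass at these times (limma adjusted p = 0.232 and 0.266 for Elk1, 0.550 and 0.376 for Crtc2).

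Of 15 reported NR4A target genes, taken from work in several tissues, 14 were measured. None passed at 30 min (limma), beside 0.0953% of all genes, and 0 had an unadjusted p under 0.05, beside 5.11%. At 180 min and at 300 min 2 of the 14 rose, where 0.211% and 0.226% of all genes were called higher. They were Bdnf, which encodes a neurotrophin, and Fosl2, an AP-1 gene. At an unadjusted p under 0.05 there were 3 of the 14 at each of these times, beside 12.8% and 8.96% of all genes. The list was chosen with earlier results of these data known, so these shares are no test of it. Whether NR4A proteins act on either gene in these cultures was not tested. Bdnf had log2 signals of 7.16 and 7.38 at 180 min and 7.28 and 7.34 at 300 min, against 6.23 and 6.03 at 0 min. At 30 min, when Nr4a1 was at its highest, Bdnf stood at 6.30 and 6.22, a change of 0.13 ± 0.13 SE (limma adjusted p = 0.983). Its changes of 1.14 ± 0.13 SE and 1.18 ± 0.13 SE at 180 and 300 min (limma adjusted p = 0.000801 and 0.000593) held without each array in turn.

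Fosl2 had signals of 8.40 and 8.31 at 180 min and 8.47 and 8.51 at 300 min, against 7.65 and 7.66 at 0 min. Its changes were 0.69 ± 0.11 SE (limma adjusted p = 0.0240) and 0.83 ± 0.11 SE (limma adjusted p = 0.00482). The 180 min call was lost without 0 min replicate 1 (adjusted p = 0.147), 0 min replicate 2 (0.112), any 1 array of 30 min (0.0558) and 180 min replicate 1 (0.104), and the 300 min call without 0 min replicate 1 (0.0699) and replicate 2 (0.0502). Of the rest, the semaphorin receptor gene Nrp1, had log2 changes of 0.15 at 180 min and 0.29 at 300 min and did not pass (limma adjusted p = 0.685 and 0.541). The median change of the 14 genes was 0.05 at 30 min, 0.03 at 180 min and 0.04 at 300 min, beside 0.00056, −0.00071 and −0.0025 for all genes.

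Among the listed targets were 4 genes of the dopamine neuron programme that Nr4a2 is known to maintain in the midbrain. Over the 8 arrays, the means were 4.84 for Th (tyrosine hydroxylase) and 4.82 for Slc6a3 (dopamine transporter), near the olfactory receptor mark of 4.47, and 4.43 for Slc18a2 (vesicular monoamine transporter) and 4.34 for Ddc (aromatic amino acid decarboxylase), below it. None of them passed at 30, 180 or 300 min against 0 min (limma), beside 0.0953%, 0.331% and 0.286% of all genes.

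Genes whose pattern was most like that of each member were found by Pearson's r of the log2 signal over the 8 arrays, among 775 other genes whose time means spanned at least 0.5. Symbols of the Gm, LOC and Rik kinds and of microRNAs were left out of the search. These r values describe the arrays and include the shared time course. For Nr4a1 the 5 nearest were Npas4 (r = 0.991), Rbm15b (0.988), Fos (0.979), Tex29 (0.945) and Gadd45g (0.940). Npas4 and Fos are immediate-early transcription factor genes, and like Nr4a1 they stood highest at 30 min, with changes of 3.88 and 2.29 against 0 min. Gadd45g, a stress-response gene, had log2 changes of 1.44 at 30 min, 0.66 at 180 min and 0.37 at 300 min, of which the first passed (limma adjusted p = 0.00011, 0.0619 and 0.428). Rbm15b (0.53 at 30 min) and Tex29 (0.53, at a mean signal of 3.73, below the olfactory receptor mark) had the same shape at a smaller size and did not pass at 30 min (limma adjusted p = 0.249 and 0.276).

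For Nr4a2 the nearest were Csrnp1 (r = 0.982), Atf3 (0.974), Erf (0.964), Maff (0.962) and Tiparp (0.953), of which Atf3, Erf and Maff are transcription factor genes. Atf3 had log2 changes of 0.52 at 30 min, 1.08 at 180 min and 0.98 at 300 min, of which the last pair passed (limma adjusted p = 0.887, 0.0348 and 0.0497). Its 180 min call was lost without each 0 min and each 30 min array and 180 min replicate 1 (adjusted p = 0.0622 to 0.226), and its 300 min call without every array but 300 min replicate 1 (0.0552 to 0.314). For Nr4a3 they were the small nucleolar RNA gene Snord53 (r = 0.974), Catip (0.956), Rara (0.925), Crhbp (0.913) and Tulp2 (0.908). Crhbp, which encodes a binding protein of corticotropin-releasing hormone, had a log2 change of 0.71 at 180 min (limma adjusted p = 0.0257), a call lost without each 0 min and each 30 min array and 180 min replicate 1 (adjusted p = 0.0585 to 0.147). Snord53, Catip and Tulp2 had mean signals of 3.92, 4.32 and 4.23, below the olfactory receptor mark.

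The likeness to Nr4a2 included the spread between replicates. For Nr4a2, replicate 1 minus replicate 2 was 0.71 at 180 min and −0.63 at 300 min. Gaps at least as large were found for 0.657% and 0.913% of all genes at those times. All 5 of its nearest genes differed in the same directions, by 0.14 (Tiparp) to 0.57 (Csrnp1) at 180 min and by −0.22 (Erf) to −0.69 (Atf3) at 300 min, and these arrays were among those used to choose them. Nr4a1 and Nr4a3 were also higher on replicate 1 at 180 min, by 0.29 and 0.36, gaps matched by 19% and 10.7% of genes. At 300 min their replicates differed by −0.09 and −0.01.

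**Figure D5:**
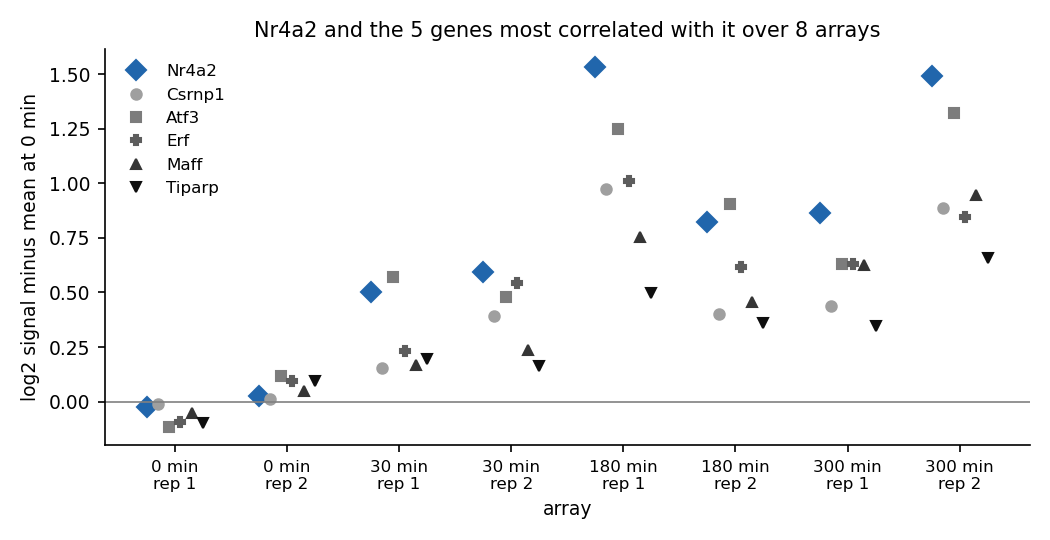
Log2 signal minus the mean at 0 min on each of the 8 arrays, for Nr4a2 (blue diamonds) and the 5 genes, of those searched, with the highest Pearson correlation with it (grey symbols, offset sideways). All 6 genes are higher on replicate 1 than on replicate 2 at 180 min and lower on replicate 1 than on replicate 2 at 300 min.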

How the data were processed

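The deposited table held 1 signal on a log2 scale per transcript cluster and array for 35399 rows. Per the labels' protocols, biotin-labelled RNA from total RNA was hybridised to Mouse Gene ST 1.0 arrays. Base 2 was inferred from the span of the signals, 1.22 to 14.96. How background was corrected, probes were summarised and arrays were normalized, and on which build, is not given in the sources used here, and no further normalization was applied. Background left in dim signals would shrink their changes. Groups and replicate numbers came from the titles.

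Rows with 1 gene symbol (21789) were used, with the cluster of highest mean for each of 19938 genes. A mean per time was fitted to all 8 arrays with limma 3.58.1 in R 4.3.3 (lmFit, eBayes; 4 residual degrees of freedom; prior degrees of freedom 10.1), with two-sided tests, Benjamini-Hochberg adjustment over all genes and a threshold of 0.05. SE is the moderated standard error, and SD that of 2 arrays. Differences between members were fitted as each gene's signal minus that of 1 member. The fits were tested on simulated data. The number of arrays limits the precision.

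The members and lists were chosen with earlier results of these data known. From each list, genes that passed against 0 min and the 3 with the smallest p are named, and for each member the 5 most correlated genes of those searched. Listed genes without a row of 1 symbol were not used here. Alternatives were quantile normalization, median centring, every row, dim genes left out, other priors, 2 times only, a replicate block and each array left out.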

Additional observations from a re-analysis of the deposited data

How the results depend on the processing

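The rise of Nr4a1 at 30 min passed under every alternative run. Testing every row, rows without a gene included, ended these calls at unchanged log2 changes: Nr4a1 at 180 min (1.07, adjusted p = 0.294) and 300 min (1.14, 0.266), Nr4a2 at 180 min (1.18, 0.392) and 300 min (1.18, 0.488), Nr4a1 at 180 and 300 min against 30 min (−1.09, 0.185, and −1.02, 0.128) and Nr4a3 minus Nr4a2 at 300 min (−0.74, 0.0651). It kept those of Nr4a2 and Nr4a3 minus Nr4a1 at 30 min (3.27e-08 and 5.06e-12) and of Nr4a3 minus Nr4a1 at 300 min (0.0165). It left 1 gene called at 180 min and 5 at 300 min against 0 min, and 9 and 26 against 30 min, beside 66, 57, 100 and 163 in the reported fit, and it also ended the 180 and 300 min calls of Bdnf, Fosl2, Rps6ka5 and Atf3 and the 180 min call of Crhbp, while that of Gadd45g at 30 min held. Fitting only the arrays of the 2 times ended the 180 min call of Nr4a2 (1.18, 0.0530), gave one to Nr4a3 minus Nr4a2 at 30 min (−0.41, 0.0101) and left 19 genes at 180 min against 0 min and 55 against 30 min. A prior that follows signal gave Nr4a3 a call at 180 min (0.64) and counts of 112 and 92 at 180 and 300 min against 0 min and 157 at 180 against 30 min, with 2 other nuclear receptor genes at 180 min and 1 at 300 against 30 min. Leaving out dim genes gave 101 and 98 at 180 and 300 min, with 1 other nuclear receptor gene at each. Nr4a3 minus Nr4a2 at 300 min (−0.74) was also lost with that prior (adjusted p = 0.0725), a robust prior (0.0698) and the replicate block (0.0788). The fit over gene pairs, with its own adjustment, ended that call (0.200) and that of Nr4a3 minus Nr4a1 at 300 min (−0.70, 0.208). Quantile normalization turned the Nr4a2 difference of 300 from 180 min to −0.043, beside 0.00059. The cluster rule had no alternative, since each member had 1. The causes were not tested.

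Without 1 array, each fit had fewer residual degrees of freedom. The ranges of log2 change were 0.84 to 1.29 and 0.91 to 1.37 for Nr4a1 at 180 and 300 min, 0.82 to 1.53 and 0.86 to 1.49 for Nr4a2, 0.011 to 0.26, 0.46 to 0.82 and 0.31 to 0.57 for Nr4a3 at 30, 180 and 300 min, 0.27 to 0.98 and 0.31 to 0.95 for Nr4a2 at 180 and 300 against 30 min, 0.32 to 0.68 for Nr4a3 at 180 against 30 min, −1.23 to −0.95 and −1.07 to −0.97 for Nr4a1 at 180 and 300 against 30 min, and −0.069 to 0.22 and −0.35 to 0.36 for Nr4a1 and Nr4a2 at 300 against 180 min. For Nr4a2 minus Nr4a1 they were −0.10 to 0.32 at 180 min and −0.23 to 0.31 at 300 min, for Nr4a3 minus Nr4a1 −0.78 to −0.077 and −1.06 to −0.35, and for Nr4a3 minus Nr4a2 −0.72 to −0.37 and −1.05 to −0.43. Counts of genes called ran from 12 (without 0 min replicate 2) to 21 at 30 min, from 15 (without 0 min replicate 1) to 68 at 180 min and from 17 (without 0 min replicate 1) to 61 at 300 min against 0 min. They ran from 17 to 93 and from 41 to 182 at 180 and 300 against 30 min, lowest without 30 min replicate 1, and from 0 to 14 at 300 against 180 min, highest without 180 min replicate 2. No other nuclear receptor gene was called without any 1 array. The replicate numbers share only a number: deviations of same-numbered arrays correlated between −0.094 and 0.092 over the 6 pairs of times. With the replicate block the change of Nr4a1 at 30 min was 2.16, and the block changed no call of a member against 0 min or 30 min.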
